A study of Mus musculus with 18 samples.

Results

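Synaptic adhesion molecules and synaptic organizers are the cell surface and secreted proteins that hold the pre- and postsynaptic membranes together and recruit the release and receptor machinery to them. The genes described here are the 62 of the 12012 genes of the deposited expression table that belong to 15 such families by name (neurexins, neuroligins, LRRTMs, SLITRKs, FLRTs, SynCAMs, SALMs, netrin-Gs, latrophilins, teneurins, contactins, contactin-associated proteins, nectins, IgSF proteins and cerebellins, all autosomal) or are 1 of 8 further genes given by name: *L1cam*, *Ncam1*, *Ncam2*, *Nrcam*, *Nfasc*, *Chl1*, *Nptn* and *Il1rapl1*. *L1cam* and *Il1rapl1* lie on chromosome X and the other 60 genes on autosomes. The X-linked family members *Nlgn3*, *Tenm1*, *Igsf1*, *Slitrk2* and *Slitrk4* are left out by this rule. Of 73 genes listed for these families, 11 have no row in the table and were not analysed here: *Adgrl4*, *Cbln3*, *Cbln4*, *Cntn3*, *Cntnap1*, *Cntnap5c*, *Igsf5*, *Igsf6*, *Igsf23*, *Nectin4* and *Slitrk6*. Each of the 62 genes had reads in every library.

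The libraries came from primary hippocampal cultures of E18.5 mouse embryos on a C57BL/6J background, either *Fibcd1* wild type (WT) or homozygous for the constitutive *Fibcd1tm1Lex* allele (KO), the gene of FIBCD1, a transmembrane receptor for glycosaminoglycans, being disrupted in all cells. Both groups analysed here were plated on coverslips coated with chondroitin sulphate proteoglycans (CSPGs), the main proteoglycans of brain matrix. The plating medium held serum and was later exchanged only in part for serum-free medium. RNA was taken after 3 days in vitro (DIV3) by the study's main text, or at DIV2 by its appendix. These groups are called WT CSPG and KO CSPG, with 4 libraries each (replicates A to D). 1 more WT CSPG library was labelled and was not analysed here. The uncoated WT and KO cultures were not analysed here, so the values compare genotypes on the CSPG coating and say nothing of the response to the coating.

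The main molecules work in pairs across the cleft. Neurexins sit on the axon and bind neuroligins, LRRTMs and, through secreted cerebellins, receptors on the dendrite. SLITRKs and some SALMs bind receptor phosphatases on the axon, and teneurins and FLRTs bind latrophilins. Contactins are lipid-anchored immunoglobulin proteins of the axon that pair with contactin-associated (CASPR) proteins, L1-family and NCAM proteins drive axon growth and bundling through ankyrins and spectrin, and SynCAMs and nectins are immunoglobulin adhesion molecules. At this age hippocampal neurons extend axons and have formed few mature synapses.

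The values are normalized counts, in which each library's reads per gene are scaled by its size factor. Genotypes were tested with limma on log2(value + 1), with Benjamini-Hochberg adjustment over all 12012 genes. A gene is called when its adjusted p is under 0.05. Fold changes are those of KO CSPG over WT CSPG, and on this scale they slightly understate the change of the lowest genes. Reads over the table lay between 10099564 and 11174615 in WT CSPG and between 10541445 and 11647202 in KO CSPG. *Fibcd1* had 54.3, 70.4, 60.1 and 182 normalized counts in WT CSPG A to D and 0.970, 0.932, 7.16 and 4.74 in KO CSPG. All 7 neuron markers were in the table, with summed values from 76033 to 81262 in WT CSPG and from 76008 to 78618 in KO CSPG, and markers of other cells were present too. The summed oligodendrocyte lineage markers were 764 to 1115 in WT CSPG and 1366 to 1548 in KO CSPG, and astrocyte and radial glia markers 37187 to 45366 and 43177 to 47924. The summed values of 4 Y-linked genes were 1557 to 1935 in WT CSPG and 878 to 1092 in KO CSPG, so the mix of male and female embryos moved with the genotype and the effects of these on a gene cannot be told apart. These are bulk cultures, in which fewer cells of a type and less RNA per cell cannot be told apart either. WT CSPG D had the most *Fibcd1* and also the most *Ttr*, a choroid plexus gene, at 3529 normalized counts against 11.6 to 953 in the other WT CSPG libraries and 5.11 to 243 in KO CSPG. It stood apart in several low genes of the 62, so counts of calls are also given without it. The study counts a replicate as 1 preparation of cells and states in general that its mice were littermates matched for sex, but no label ties a library to a litter or a day. The p-values rest on the spread between these preparations, which limma moderates with a prior variance drawn from all genes.

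Of the 62 synaptic adhesion genes, 5 were called between KO CSPG and WT CSPG, or 8.06%, where 2.88% of all genes were called. Higher in KO CSPG were *Cntnap5a*, *Cntnap2*, *Cntn5* and *Lrfn5*, or 6.45% of the 62 against 1.09% of all genes, and lower was *Cntn2*, or 1.61% against 1.79%. The direction over all genes depended on the scaling, with 131 called higher and 215 lower as deposited and 182 and 178 under upper-quartile scaling, where 5 of the 62 were higher and 1 lower. They are 2 contactins, 2 CASPR-family genes and 1 SALM, and no neuroligin, LRRTM, SLITRK, FLRT, SynCAM, nectin, latrophilin, teneurin, cerebellin, IgSF, NCAM or L1-family gene passed the threshold. At an unadjusted p under 0.05 there were 27 of the 62 genes, while 16.2% of all genes were under it. The groups did not overlap for 11 of the 62 genes, or 17.7%, against 9.22% of all genes. Of these, 8 were higher in KO CSPG (12.9% against 4.05%) and 3 were lower (4.84% against 5.17%). The median log2 fold change of the 62 genes was 0.03, and that of all genes 0.00. The called changes were small: *Cntn2* fell by 13.3%, and the others rose by 11.5% (*Lrfn5*), 14.4% (*Cntnap2*), 31.5% (*Cntnap5a*) and 49.8% (*Cntn5*).

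**Figure D1:**
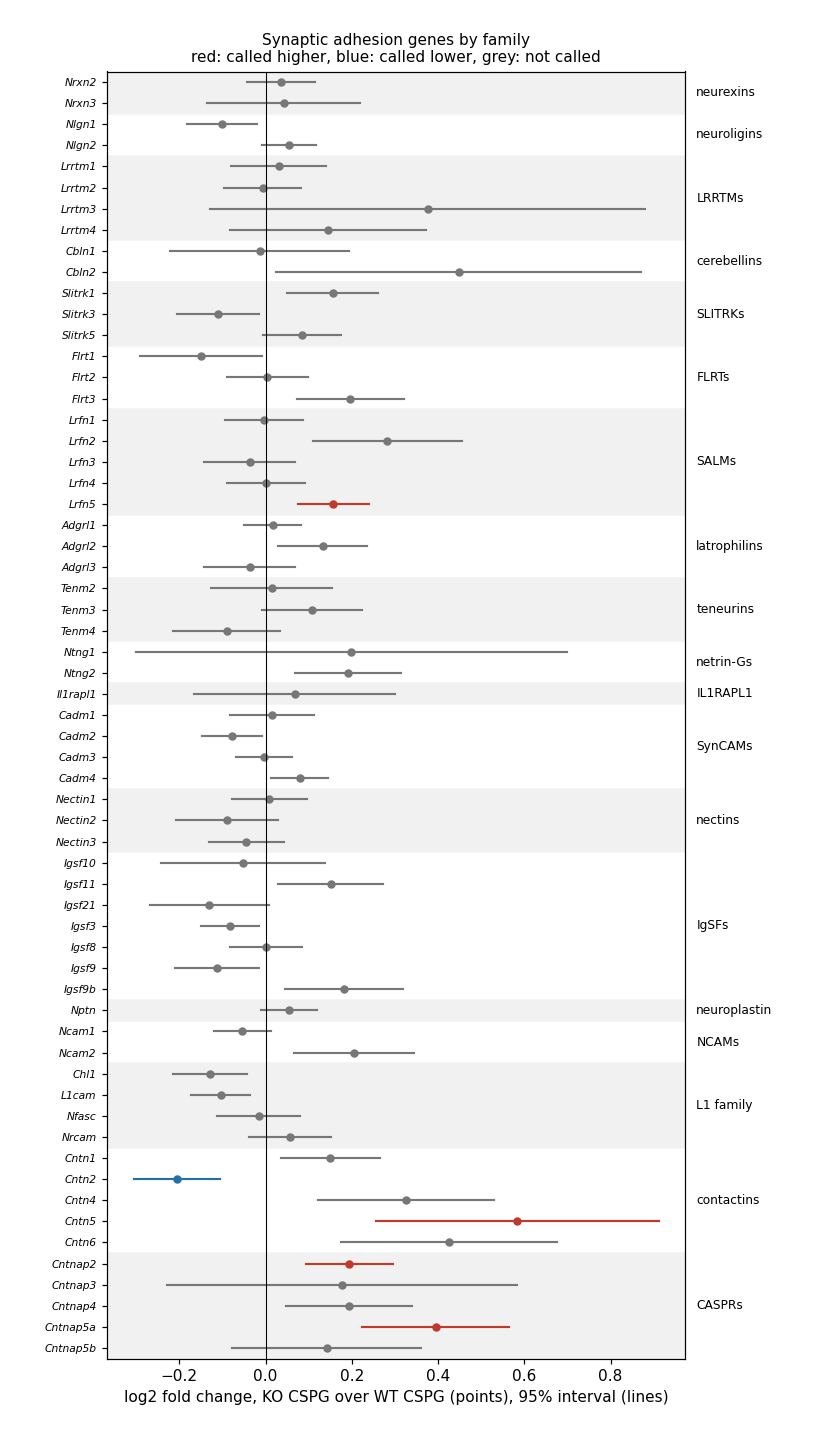
Log2 fold change (KO CSPG relative to WT CSPG) for the synaptic adhesion genes (x axis, points) with its 95% interval from limma (lines), grouped by family (y axis), for 4 libraries against 4. The 4 genes called higher and *Cntn2*, called lower, lie in the contactins, the CASPRs and the SALMs, while *Nrxn2* and *Nrxn3* at the top have intervals that cover 0.

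The contactins and CASPRs held most of the called genes. There are 10 of them in the table, 5 contactins and 5 CASPR-family genes, and 9 had a positive log2 fold change. Of the 10, 3 were called higher (30%, against 1.09% of all genes) and 1 lower (10% against 1.79%). For 5 (50% against 9.22%) the libraries of the genotypes did not overlap. Their median log2 fold change was 0.19. That these families were looked at together was decided after their values had been seen.

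*Cntnap5a* (ENSMUSG00000070695, mm10 chromosome 1, 115684756 to 116587323, plus strand), a CASPR-family gene of neurexin-like structure, had the smallest p of the 62. Its normalized counts were 206, 221, 225 and 263 in WT CSPG A to D and 290, 339, 264 and 311 in KO CSPG A to D. Every KO CSPG library was above every WT CSPG library, with the smallest gap between WT CSPG D and KO CSPG C. The means were 229 ± 24.3 (SD, n = 4) and 301 ± 32.1 (SD, n = 4), and the log2 fold change was 0.39 (standard error 0.08, adjusted p = 0.00770 from limma). It was called in each of the 8 fits that left out 1 library, with adjusted p no higher than 0.0366. Its paralogue *Cntnap5b*, on the same chromosome, went from 102 ± 8.04 to 113 ± 11.7 normalized counts (SD, n = 4) and was not called, with a log2 fold change of 0.14 (95% interval -0.08 to 0.36). Reads of the paralogues are mostly distinct, since 99.0% of the 50-base windows of *Cntnap5a* transcripts and 98.2% of those of *Cntnap5b* occur in transcripts of no other gene.

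*Cntnap2* (ENSMUSG00000039419, chromosome 6, 45059357 to 47304213, plus strand) encodes CASPR2, which clusters potassium channels along axons. It had 1194, 1305, 1259 and 1384 normalized counts in WT CSPG A to D and 1470, 1582, 1482 and 1350 in KO CSPG. The groups overlapped, because KO CSPG D lay below WT CSPG D. The log2 fold change was 0.19 (standard error 0.05, adjusted p = 0.0303 from limma). *Cntnap4*, which is used by interneurons, went from 287 ± 29.8 to 327 ± 10.8 normalized counts (SD, n = 4) with no overlap but was not called (log2 fold change 0.19, adjusted p = 0.151 from limma). The summed markers of GABAergic neurons were 4083 to 4784 in WT CSPG and 4553 to 5175 in KO CSPG, with 0 of 5 called and 2 at an unadjusted p under 0.05, and their part in these values was not tested. *Cntnap3* was low in all libraries, between 37.8 and 81.8 normalized counts, and its interval of the log2 fold change ran from -0.23 to 0.58.

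Among the contactins, the one called lower had the highest level per length, and those with positive fold changes had lower levels. *Cntn2* (ENSMUSG00000053024, chromosome 1, 132509427 to 132543256, minus strand) encodes TAG-1, a contactin of growing axons. It had 10791, 11664, 10433 and 9971 normalized counts in WT CSPG A to D and 9306, 9425, 8704 and 9685 in KO CSPG. All KO CSPG libraries lay below all WT CSPG libraries, and the log2 fold change was -0.21 (standard error 0.05, adjusted p = 0.0342 from limma). *Cntn5* (ENSMUSG00000039488, chromosome 9, 9660891 to 10904775, minus strand), which encodes a contactin known from sensory circuits, had 43.9, 49.8, 46.6 and 77.5 normalized counts in WT CSPG A to D and 79.5, 94.2, 78.7 and 69.2 in KO CSPG. The WT CSPG replicate D stood with the KO CSPG libraries and above 1 of them. The log2 fold change was 0.58 (standard error 0.16, adjusted p = 0.0446 from limma).

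The other contactins were not called. *Cntn6*, a close relative of *Cntn5*, had 59.6, 69.3, 70.8 and 76.4 normalized counts in WT CSPG and 81.5, 93.2, 103 and 93.9 in KO CSPG. These did not overlap, and the log2 fold change of 0.42 (standard error 0.12) had an adjusted p of 0.0572 from limma. *Cntn4* had 133, 104, 115 and 138 normalized counts in WT CSPG and 164, 145, 149 and 153 in KO CSPG, again without overlap (log2 fold change 0.32, adjusted p = 0.0771 from limma). *Cntn1*, whose protein pairs with CASPR on axons, went from 2542 ± 193 to 2819 ± 160 normalized counts (SD, n = 4), with overlap and an adjusted p of 0.169 from limma. *Cntn6* and *Cntn4* lie next to *Chl1* on chromosome 6, and *Chl1* had a log2 fold change of the opposite sign.

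**Figure D2:**
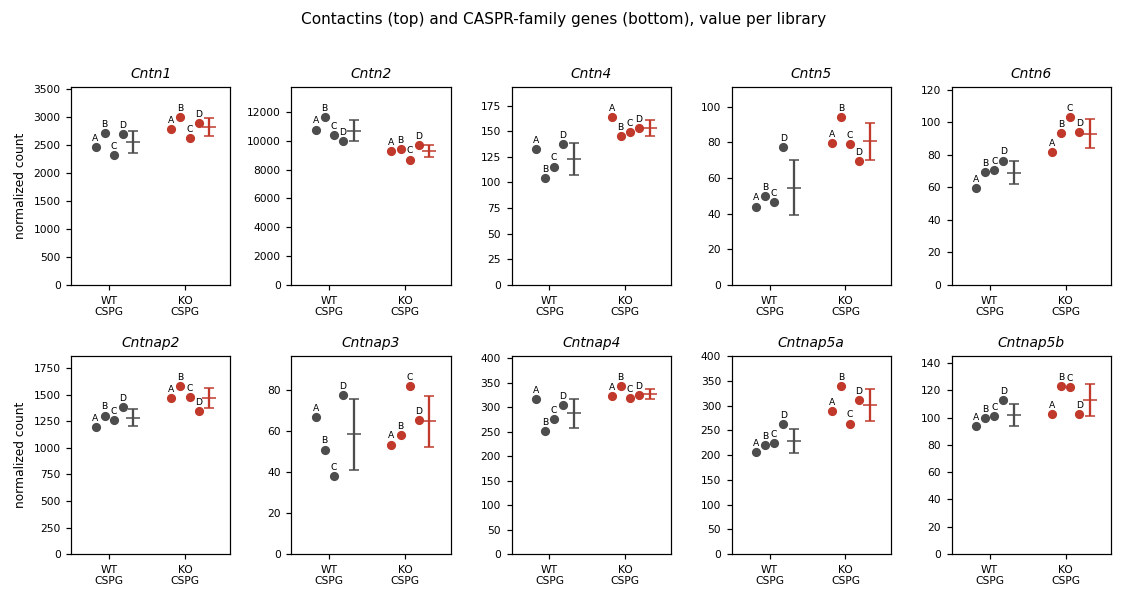
Normalized counts (y axis, from 0) of the 5 contactins (top row) and 5 CASPR-family genes (bottom row) in each of the 4 WT CSPG (grey) and 4 KO CSPG (red) libraries, with letters for the replicates and bars for the mean and SD. *Cntn2* is the gene whose KO CSPG libraries all sit lower, between 8704 and 9685 against 9971 to 11664, while *Cntnap5a*, *Cntn6*, *Cntn4* and *Cntnap4* have all KO CSPG libraries above all WT CSPG libraries.

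Each of these calls except that of *Cntnap5a* depended on single libraries. *Cntn2* was not called without the WT CSPG replicate A or C or without the KO CSPG replicate A, B or C, with a log2 fold change between -0.24 and -0.16 over the 8 fits without 1 library and a largest adjusted p of 0.0998 from limma. *Lrfn5* was not called without WT CSPG A or B or KO CSPG A, C or D (largest adjusted p 0.110 from limma). *Cntnap2* was not called without any of the replicates A to C of either genotype (largest 0.105), nor was *Cntn5* (largest 0.153). Without KO CSPG A or C, 1 of the 62 genes was called (1.61%, against 1.55% and 1.70% of all genes), so that their share was near that of all genes. It was 2 of the 62 (3.23%) without WT CSPG A, B or C, against 1.88%, 2.30% and 1.68% of all genes. Without KO CSPG B it was 4 (6.45% against 2.24%), without KO CSPG D 6 (9.68% against 2.18%) and without WT CSPG D 12 (19.4% against 4.80%). Without WT CSPG D, the 12 included all 5 and also *Cntn4*, *Cntn6*, *Ntng2*, *Ncam2*, *Lrfn2*, *Lrrtm3* and *Cbln2*. Genes outside the 5 were also called without WT CSPG A (*Flrt3*), KO CSPG B (*Chl1* and *Lrfn2*) and KO CSPG D (*L1cam* and *Slitrk3*). When the fit held a Y-linked covariate, 91.2% of whose variance lay between the genotypes, 0 of the 62 genes were called by limma and 11 had an unadjusted p under 0.05. That fit can hardly tell the genotype from the covariate, and it called 2 of all 12012 genes. In it the log2 fold change was -0.0132 for *Cntnap5a*, -0.18 for *Cntnap2* and -0.15 for *Cntn5*, of the opposite sign, while *Lrfn5* and *Cntn2* kept their signs. Without the trend of limma's prior variance, 0 were called and 20 had an unadjusted p under 0.05.

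The called genes that rose lie over very long stretches of the genome. The 4 genes called higher span 335 to 2240 kb (median 1070 kb) and *Cntn2* spans 33.8 kb. The median of the 57 genes not called was 125 kb, but these ranged from 3.88 to 1610 kb. Over all genes called higher the median span was 69.2 kb, over those called lower 52.2 kb and over the rest 26.2 kb. Among the 15 of the 62 genes that span at least 500 kb, 3 were called higher (20%, against 1.09% of all genes) and 0 lower (against 1.79%). Of these 15, 11 had positive fold changes. Among the 168 other genes of that span, 7 were called higher (4.17%) and 8 lower (4.76%), and 93 had positive fold changes. Spearman's rho between span and log2 fold change was 0.269 over the 62 genes and -0.094 over all 12012 genes, given as a description across genes, which share libraries and are not replicates. With each library's trend with span removed, an alternative chosen after seeing the data, the same 5 of the 62 genes were called and *Chl1* and *Cntn1* besides.

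Promoter sequence is shown for the called genes whose RefSeq start lay within 50 bases of the start in the table, which left *Cntn5* and *Lrfn5*, both higher in KO CSPG. The bases are those just upstream of the gene, 5′ to 3′ on its own strand, from RefSeq on GRCm38.p6, at chr9:10904776-10905025 for *Cntn5* (minus strand) and chr12:61522917-61523149 for *Lrfn5* (plus strand). Capitals mark matches on either strand to a GC box (GGGCGG), a CRE core (TGACG), an AP-1 site (TGANTCA) or an E-box (CAGCTG).
*Cntn5*: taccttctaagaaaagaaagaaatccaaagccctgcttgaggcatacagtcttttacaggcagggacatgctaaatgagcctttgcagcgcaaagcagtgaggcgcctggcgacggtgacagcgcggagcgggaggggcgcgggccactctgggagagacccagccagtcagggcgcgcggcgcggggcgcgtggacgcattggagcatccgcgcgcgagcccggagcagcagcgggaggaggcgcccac
*Lrfn5*: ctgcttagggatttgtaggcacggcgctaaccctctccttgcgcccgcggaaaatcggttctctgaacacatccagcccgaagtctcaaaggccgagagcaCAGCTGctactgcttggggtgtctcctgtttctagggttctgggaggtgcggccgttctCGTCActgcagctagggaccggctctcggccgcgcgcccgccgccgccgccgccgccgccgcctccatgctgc
The *Cntn5* window holds none of these motifs and the *Lrfn5* window has an E-box and a CRE core. Of the 48 genes among the 62 with a RefSeq promoter, taking the start nearest to the table's, 22 had a GC box in the 250 bases before the start (45.8%, against 33.0% of all RefSeq promoters), 10 a CRE core (20.8% against 17.8%), 7 this E-box (14.6% against 13.1%) and 1 an AP-1 site (2.08% against 6.73%). Among the 4 called genes with a promoter there, 1 had a GC box, 1 a CRE core, 1 an E-box and 0 an AP-1 site. The share over all promoters counts each of 32544 distinct promoter sequences, while each of the 48 genes counts once. Among these 48 genes, 22 had a RefSeq start within 50 bases of the start in the table. These are matches of letters and not sites of binding.

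The neurexins, which serve as axonal hubs for many partners, include *Nrxn2* and *Nrxn3*, neither of them called. *Nrxn2* had 3514, 3748, 3572 and 4023 normalized counts in WT CSPG A to D and 3735, 3673, 3816 and 3992 in KO CSPG. These overlapped, and the means were 3714 ± 229 and 3804 ± 138 normalized counts (SD, n = 4) in WT CSPG and KO CSPG, with an interval of the log2 fold change from -0.04 to 0.11. *Nrxn3* had 570 ± 65.3 and 585 ± 51.3 normalized counts, with a wider interval of the log2 fold change, from -0.13 to 0.22.

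The postsynaptic ligands of neurexins did not pass the test either. *Nlgn1*, the neuroligin of excitatory synapses, had 1840, 1914, 1897 and 1851 normalized counts in WT CSPG A to D and 1809, 1865, 1611 and 1723 in KO CSPG. KO CSPG B lay within the WT CSPG range and the other 3 below it, with a log2 fold change of -0.10 (95% interval -0.18 to -0.02, adjusted p = 0.189 from limma). *Nlgn2*, the neuroligin of inhibitory synapses, had 3226 ± 82.6 and 3349 ± 67.5 normalized counts (SD, n = 4) and a log2 fold change of 0.05 (adjusted p = 0.398 from limma). The 4 LRRTMs, which compete with neuroligins for neurexins, had log2 fold changes between -0.01 (*Lrrtm2*) and 0.38 (*Lrrtm3*). Of the cerebellins, *Cbln1* had 212 ± 30.1 and 209.8 ± 26.4 normalized counts, and *Cbln2* 65.9 ± 19.9 and 89.1 ± 18.7, neither called.

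**Figure D3:**
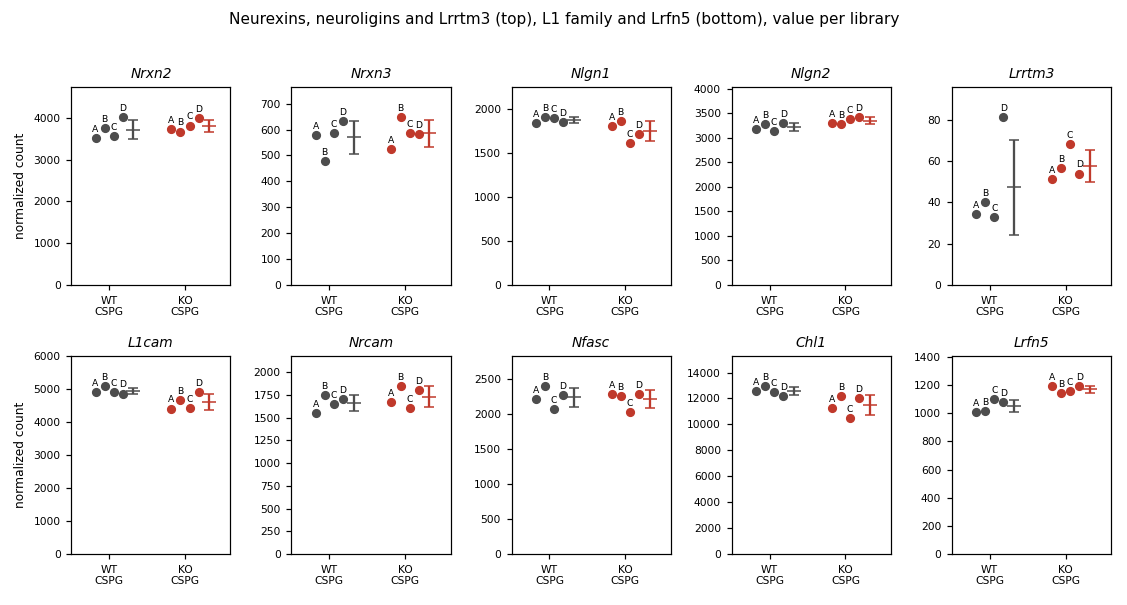
Normalized counts (y axis, from 0) of *Nrxn2*, *Nrxn3*, the neuroligins and *Lrrtm3* (top row) and of the L1 family and *Lrfn5* (bottom row) in each of the 4 WT CSPG (grey) and 4 KO CSPG (red) libraries, with letters for replicates and bars for the mean and SD. *Nrxn2* and *Nrxn3* overlap between genotypes, *Chl1* sits lower in each KO CSPG library, and *Lrfn5* sits higher, at 1141 to 1193 against 1012 to 1098.

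Among the other leucine-rich repeat organizers, 1 of the 5 SALM genes was called. *Lrfn5* (ENSMUSG00000035653, chromosome 12, 61523150 to 61858342, plus strand), which encodes SALM5, a postsynaptic ligand of axonal receptor phosphatases, had 1012, 1013, 1098 and 1080 normalized counts in WT CSPG A to D and 1192, 1141, 1159 and 1193 in KO CSPG. The groups did not overlap, and the log2 fold change was 0.16 (standard error 0.04, adjusted p = 0.0296 from limma). *Lrfn2*, a SALM that binds the scaffold PSD-95, had 176, 159, 179 and 197 normalized counts in WT CSPG and 217, 194, 220 and 234 in KO CSPG, with 1 library of KO CSPG inside the WT CSPG range and an adjusted p of 0.0669 from limma. *Lrfn1*, *Lrfn3* and *Lrfn4* had log2 fold changes between -0.04 and 0.00.

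The SLITRK, FLRT, latrophilin and teneurin genes had no call among 12. *Slitrk1* went from 592 ± 30.1 to 660.1 ± 37.6 normalized counts (SD, n = 4), with a log2 fold change of 0.16 and an adjusted p of 0.108 from limma. *Flrt3*, a latrophilin ligand, had 703, 605, 565 and 582 normalized counts in WT CSPG and 664, 755, 686 and 702 in KO CSPG, and the WT CSPG replicate A lay among the KO CSPG libraries (log2 fold change 0.20, adjusted p = 0.0836 from limma). *Slitrk3* and *Slitrk5* and *Flrt1* and *Flrt2* had log2 fold changes of -0.11, 0.09, -0.15 and 0.00. The latrophilins ranged from -0.04 (*Adgrl3*) to 0.13 (*Adgrl2*), and the teneurins from -0.09 (*Tenm4*) to 0.11 (*Tenm3*). Of the netrin-Gs, which bind netrin-G ligands across the synapse, *Ntng2* had 526, 465, 542 and 575 normalized counts in WT CSPG and 584, 580, 654 and 585 in KO CSPG, without overlap but with an adjusted p of 0.0876 from limma.

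No L1-family gene was called with all 8 libraries, though *Chl1* was without KO CSPG B and *L1cam* without KO CSPG D, and 3 of the 4 had negative log2 fold changes. *Chl1*, a recognition molecule of growing axons, had 12568, 12947, 12469 and 12190 normalized counts in WT CSPG A to D and 11233, 12185, 10501 and 12041 in KO CSPG. No KO CSPG library reached a WT CSPG library, though WT CSPG D and KO CSPG B differed by less than 10 normalized counts, and the log2 fold change was -0.13 (95% interval -0.22 to -0.04, adjusted p = 0.115 from limma). *L1cam*, which is X-linked, had 4908, 5092, 4923 and 4866 normalized counts in WT CSPG and 4412, 4680, 4416 and 4920.2 in KO CSPG, where replicate D lay inside the WT CSPG range (log2 fold change -0.10, adjusted p = 0.0923 from limma). *Nrcam* and *Nfasc*, the L1-family proteins of the axon initial segment, had log2 fold changes of 0.06 (95% interval -0.04 to 0.15) and -0.02 (95% interval -0.11 to 0.08). Of the NCAMs, *Ncam1* had 8438 ± 408 and 8121 ± 249 normalized counts (SD, n = 4), and *Ncam2* had 483 ± 49.5 and 556 ± 39.6, with log2 fold changes of -0.05 and 0.21 (adjusted p = 0.426 and 0.107 from limma).

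No SynCAM, nectin or IgSF gene was called. The SynCAMs had log2 fold changes from -0.08 (*Cadm2*) to 0.08 (*Cadm4*), and all 4 KO CSPG libraries had more *Cadm4*, 3636 to 3921 normalized counts, than any WT CSPG library, 3379 to 3611. The nectins ranged from -0.09 (*Nectin2*) to 0.01 (*Nectin1*). The 7 IgSF genes ranged from -0.13 (*Igsf21*) to 0.18 (*Igsf9b*). *Igsf9* was lower in every KO CSPG library, at 510.04 to 532 against 559 to 569 normalized counts, and *Igsf9b* higher in every one, at 365 to 450.4 against 324 to 361, with adjusted p of 0.228 and 0.151 from limma. *Nptn*, which encodes neuroplastin, had 2712 ± 96.6 and 2815 ± 32.5 normalized counts (SD, n = 4). *Il1rapl1*, an X-linked postsynaptic organizer, had 91.7 to 132 normalized counts in WT CSPG and 108 to 121 in KO CSPG.

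Levels of different genes were compared as RPKM, scaled by the gene's length in the table and the library's reads over the table. *Cadm4* was the highest of the 62, at 155 ± 6.96 (SD over the 8 libraries), followed by *Cntn2* (99.0 ± 8.88), *Chl1* (90.1 ± 5.54), *Ncam1* (88.1 ± 3.42) and *L1cam* (59.9 ± 2.91) on this scale. The ranges of *Cntn2*, *Chl1* and *Ncam1* over the libraries overlapped in this order, whereas *Cadm4* lay above *Cntn2*, and *Ncam1* above *L1cam*, in every library. The lowest were *Cntnap3* (1.16 ± 0.275), *Cntn6* (1.15 ± 0.214), *Lrrtm3* (1.14 ± 0.365), *Il1rapl1* (1.10 ± 0.129) and *Ntng1* (0.689 ± 0.193), and each of these overlapped the next in order. Ranges of neighbours in the order were separate at only 7 of 61 steps.

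**Figure D4:**
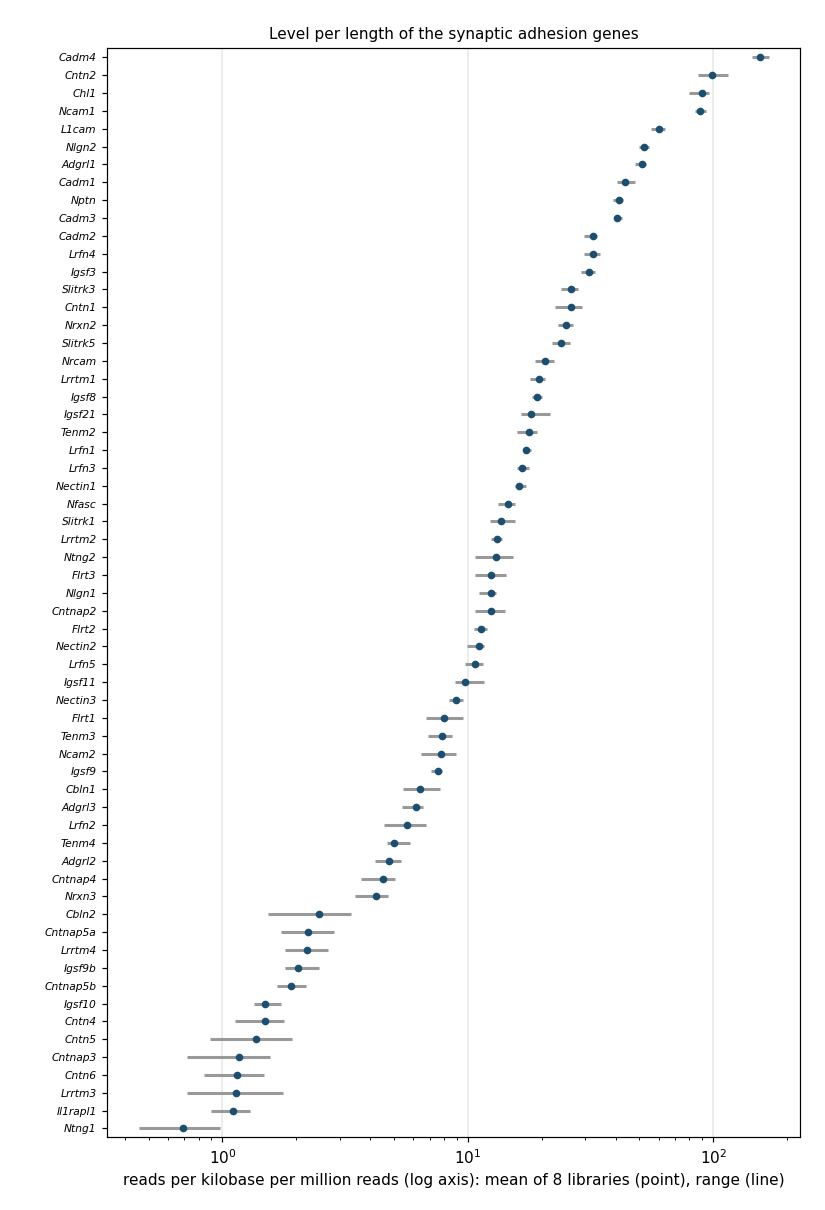
Level per length of the synaptic adhesion genes, in RPKM on a log axis (x axis), as the mean of the 8 libraries (points) and their range (lines), in order of the mean (y axis). *Cadm4* stands alone at the top at 155, and *Ntng1* is the lowest at 0.689.

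Over the 62 genes the median coefficient of variation was 5.74% among the WT CSPG libraries and 5.83% among the KO CSPG libraries, and over all genes it was 5.50% and 5.33%. It reached 48.8% in WT CSPG for *Lrrtm3*, where replicate D had 81.5 normalized counts and the others 33.0 to 40.1. The same library was also the highest of its group for *Ntng1* (87.6 against 40.7 to 61.7), *Cbln2* (93.8 against 48.7 to 65.8), *Cntn5* and *Cntnap3* (77.5 against 37.8 to 66.9). Over the 62 genes, the log2 ratio of WT CSPG D to the mean of the other WT CSPG libraries had an SD of 0.254, against 0.161 over all genes. WT CSPG D was the highest of its group for 26 of the 62 genes, and B was for 21. The part of the *Ttr* signal of this library in these values was not tested.

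Genes of the same pathways outside the 62 were taken from lists made with earlier results of these data known. Of 60 other synaptic organizers 56 were in the table, and 1 was called higher (1.79%, against 1.09% of all genes) and 3 lower (5.36% against 1.79%), with a median log2 fold change of -0.03. The neuronal pentraxin genes *Nptx1* and *Nptx2*, which encode secreted proteins that cluster AMPA receptors, fell. *Nptxr* in the same list was not called (log2 fold change 0.06, adjusted p = 0.434 from limma). *Nptx1* had 1083, 966, 1071 and 884 normalized counts in WT CSPG A to D and 666, 679, 652 and 740.4 in KO CSPG (log2 fold change -0.54, standard error 0.06, adjusted p = 1.59e-05 from limma). *Nptx2* had 185, 162, 178 and 178 in WT CSPG and 99.9, 134, 130 and 118 in KO CSPG (log2 fold change -0.55, adjusted p = 0.00138 from limma). Neither *Nptx1* nor *Nptx2* overlapped between genotypes, and both were called in each fit without 1 library. *Sparc*, a matrix protein of glia that limits synapse formation, fell (log2 fold change -0.22, adjusted p = 0.0108 from limma). Its groups overlapped, as KO CSPG B (1591 normalized counts) lay above WT CSPG A (1572). *Sparcl1* was higher in every KO CSPG library but not called (log2 fold change 0.25, adjusted p = 0.188 from limma). *Lrrc4c*, which encodes the netrin-G1 ligand NGL-1, rose (log2 fold change 0.20, adjusted p = 0.0445 from limma), although it was called in 1 of the 8 fits without 1 library.

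Of the 37 intracellular scaffold partners all were in the table. Of these, 1 was called higher (2.70%, against 1.09% of all genes) and 2 lower (5.41% against 1.79%), with a median log2 fold change of 0.00. *Homer1*, a postsynaptic scaffold gene with an activity-induced short form, had 1347.5 ± 43.9 normalized counts in WT CSPG and 1205 ± 32.5 in KO CSPG (SD, n = 4), with a log2 fold change of -0.16 (adjusted p = 0.0182 from limma). *Epb41l3*, whose protein 4.1B binds the cytoplasmic tails of CASPR and SynCAM proteins, had 716, 697, 704 and 732 normalized counts in WT CSPG and 594, 577, 652 and 658 in KO CSPG (log2 fold change -0.20, adjusted p = 0.0251 from limma). *Dlg3*, a scaffold of the PSD-95 family on chromosome X, rose, from 1101 ± 42.7 to 1234 ± 59.4 normalized counts (log2 fold change 0.16, adjusted p = 0.0299 from limma). The scaffold calls were lost in some fits without 1 library: *Homer1* and *Epb41l3* were called in 4 of the 8 and *Dlg3* in 3 of the 8. With the Y-linked covariate, which can hardly be told from the genotype, no gene of any partner or marker list was called by limma. There the log2 fold changes of *Dlg3* (-0.14) and *Epb41l3* (0.0062) had the opposite sign.

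Among the 13 ankyrin, spectrin and linker genes that anchor L1-family proteins, 2 were called lower (15.4%, against 1.79% of all genes). None was called higher (against 1.09% of all genes), and the median was -0.02. *Ezr*, a membrane-to-actin linker, had 1421 ± 77.9 and 1247 ± 14.7 normalized counts (SD, n = 4; log2 fold change -0.19, adjusted p = 0.00849 from limma) and *Sptan1*, an alpha spectrin, 15504 ± 536 and 14175 ± 640 (log2 fold change -0.13, adjusted p = 0.0213 from limma). *Ezr* was called in all 8 fits without 1 library and *Sptan1* in 4. The ankyrins *Ank1*, *Ank2* and *Ank3* were not called. Of the 16 ectodomain proteases, which shed neurexins, neuroligins and L1-family proteins, 13 were in the table, 0 were called by limma and 2 had an unadjusted p under 0.05, with a median of 0.01. The 11 splicing factors that set the exons of neurexins and other synaptic genes were all in the table. Of these, *Srrm4* alone was called lower (9.09%, against 1.79% of all genes) and none higher (against 1.09%), with a median of 0.02. *Srrm4*, the neuronal microexon regulator, had 1348, 1320, 1178 and 1230 normalized counts in WT CSPG and 942, 1068, 979 and 1124 in KO CSPG (log2 fold change -0.30, standard error 0.05, adjusted p = 0.00370 from limma), and it was called in all 8 fits without 1 library. The table counts reads per gene, so neurexin isoforms were not measured.

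**Figure D5:**
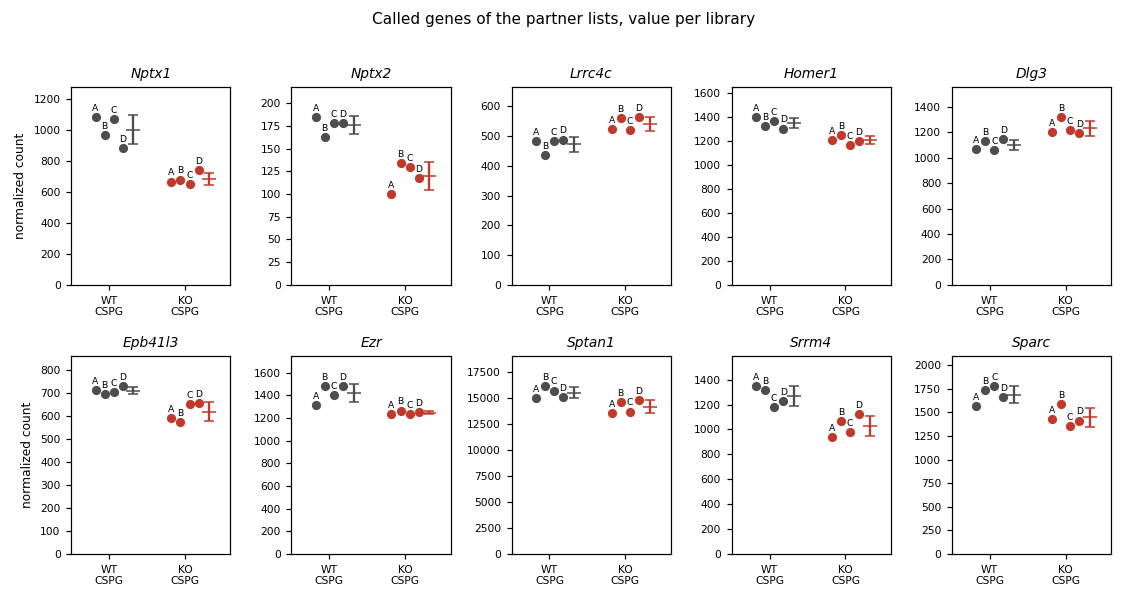
Normalized counts (y axis, from 0) of the 10 genes called in the lists of organizers, scaffolds, membrane linkers and splicing factors, in each of the 4 WT CSPG (grey) and 4 KO CSPG (red) libraries, with letters for replicates and bars for the mean and SD. *Nptx1* and *Nptx2* show the widest separation, and *Dlg3* and *Lrrc4c* are the genes that sit higher in KO CSPG.

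Markers of the cells in the cultures were called in 1 list alone, that of the oligodendrocyte lineage, besides the Y-linked list, where all 4 genes were called lower. Of the 6 oligodendrocyte lineage genes, 2 were called higher (33.3%, against 1.09% of all genes), *Olig1* and *Olig2*, with log2 fold changes of 0.59 and 0.79. *Pdgfra* (1.03), *Cspg4* (0.64), *Sox10* (0.17) and *Gpr17* (-0.02) were not called, and the median log2 fold change of the 6 was 0.62. By limma, 0 of 7 neuron, 0 of 7 astrocyte and radial glia, 0 of 5 microglia, 0 of 4 fibroblast and mural cell markers and the 1 endothelial marker in the table were called, with 1, 2, 3, 0 and 1 at an unadjusted p under 0.05. Their medians were 0.01, 0.11, 0.13, 0.33 and -0.42. Summed microglia markers were 1424 to 1604 in WT CSPG and 1500 to 1806 in KO CSPG, fibroblast and mural markers 188 to 615 and 235 to 931, and the endothelial marker *Kdr* 47.5 to 82.5 and 36.8 to 54.1. The part of these cell types in the values of the synaptic adhesion genes was not tested.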

How the data were processed

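The authors sequenced poly-A RNA as 50-base single reads at a facility that also did the alignment, and used DESeq2 and the Galaxy platform. The aligner and counting program are not given in the sources used here, and the build is mm10 per the labels. Of 18 labelled libraries, 8 have columns in the deposited table, and 0 columns of other samples were left unused. Per the file headers they hold counts, but they are not whole, and what the authors deposited is a signal scaled by library. Each value lay within 4.4e-07 of a read of a whole multiple of its library's step, which gave the reads per library. Planned models for counts were not run. The authors' own fold changes, standard errors, Wald scores and p-values for this comparison were not used. The gene length in the table was used for levels per length.

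Values were compared on log2(value + 1) with limma 3.58.1 in R 4.3.3 (trend and robust prior), with Benjamini-Hochberg adjustment over 12012 genes and a threshold of 0.05. Intervals are 95% and come from limma's moderated variance. The fit was tested on simulated data. Coordinates are printed 1-based, and 55 of the 62 genes have the same coordinates in GENCODE M21. Genes named in full were those called, neurexins, neuroligins, the 8 given by name, the 10 uncalled with the smallest p, the 5 highest and 5 lowest in level and called genes of the partner lists, and other genes are named with their values known. An item counted among the 62 is not reported here. The genes and lists were chosen with earlier results of these data known. Alternatives were pseudocounts of 0.1 and 10, 2 filters on low values, upper-quartile scaling, no trend, no robust prior, a replicate block, a Y-linked covariate, removal of the trend with genomic span, and leaving out each library.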

Additional observations from a re-analysis of the deposited data

Results flagged for a closer look

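In 160 groups of 4 libraries, over the 62 genes and 18 others named, 9 had a library far from the rest by Dixon's criterion, where chance gives about 8 (1 in 20). Among the synaptic adhesion genes these were *Ntng2* in KO CSPG C (654.3 normalized counts against 580 to 585), *Igsf9b* in KO CSPG B (450.4 against 365 to 376), *Nptn* in KO CSPG D (2863 against 2796 to 2802), *Lrrtm3* in WT CSPG D (81.5 against 33.0 to 40.1) and *Nfasc* in KO CSPG C (2028 against 2266 to 2296). Among partners and checks they were *Dlg3* in KO CSPG B (1322 against 1197 to 1216), *Lrrc4c* in WT CSPG B (435 against 483 to 488), *Olig1* in WT CSPG A (369 against 424 to 428) and *Fibcd1* in WT CSPG D (182 against 54.3 to 70.4). With WT CSPG D left out, *Lrrtm3* had a log2 fold change of 0.67 and an adjusted p of 0.0160 from limma. No cause of a single value was tested.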

How the results depend on the processing

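The planned models for counts were not run. Without the trend of limma's prior variance, 80 genes were called (28 higher, 52 lower), 0 of the 62 synaptic adhesion genes (0 in each direction, 20 at an unadjusted p under 0.05) and 7 genes of the other lists, in place of 346, 131, 215, 5, 4, 1 and 16. With the Y-linked covariate, limma called 2 genes (1 higher and 1 lower, with 824 at an unadjusted p under 0.05), 0 of the 62 (11 at an unadjusted p under 0.05) and 0 of the other lists. The other lists include the 4 Y-linked genes, which make up the covariate and were all called in the main fit. The covariate fit can hardly tell the genotype from the covariate. In it the log2 fold change turned to -0.0132 for *Cntnap5a*, -0.18 for *Cntnap2*, -0.15 for *Cntn5*, -0.29 for *Nrcam*, -1.27 for *Ntng1*, -0.10 for *Lrrtm3*, 0.0062 for *Epb41l3* and -0.14 for *Dlg3*. With the trend with genomic span removed, 2 of the 62 were called lower. Without 1 library, calls ranged from 186 to 576 over all genes (62 to 286 higher, 124 to 290 lower), from 1 to 12 of the 62 (1 to 11 higher, 0 to 3 lower) and from 11 to 31 in the other lists. Signs turned in some of these fits for *Il1rapl1* (-0.0112 to 0.16), *Nrxn3* (-0.0387 to 0.0962), *Nfasc* (-0.0529 to 0.0272) and *Cntnap3* (-0.0088 to 0.33). The cause was not tested. Same-letter libraries had correlated deviations of -0.07 for A, 0.10 for B, 0.28 for C and -0.01 for D. Between unlike letters the correlations ran from -0.20 to 0.11, and these values do not settle whether the letters pair the libraries. With the replicate block, 9 of the 62 were called (7 higher, 2 lower), 4 of them among the 5, and 25 in the other lists. The other pseudocounts, filters, scaling and prior called 4 to 6 of the 62. A mean of at least 100 removed *Cntn5*, and without the robust prior it was not called. Upper-quartile scaling called 182 genes higher and 178 lower.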
